A study of Mus musculus with 84 samples.

Results

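Interferon-induced genes are the genes whose transcription rises in a cell that has sensed an interferon, and 32 of them, chosen by name from the well-known members of the antiviral programme, were followed here in liver and inguinal adipose tissue (IAT) of diabetic mice. The arrays held probes for 29 of the 32 under the same gene name, 44 probes in all of 41174 probes and 27845 gene names. Irf9 and Dhx58 were found only through their accessions, under older names, and no probe was found for Xaf1. Oas1g had a probe that was not well above background on any array and was not tested. The remaining 28 genes with a matching name passed the filter on dim probes in each tissue, and all counts below are of these 28. They passed because they were well above background on 50% or more of the arrays. This was read in the treated channel of at least 1 group, or in the pool channel over all arrays of the tissue.

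All mice were male db/db mice of the strain BKS Cg-m+/+ Leprdb/J, which lack a working leptin receptor and become obese and diabetic, and they were 8 weeks old when received. They took rosiglitazone (RSG), a thiazolidinedione that activates the nuclear receptor PPARγ, or a compound that the labels call only the S compound (S), by mouth for 18 days at 28, 84 or 280 µmol/kg. There were 6 mice for each compound and dose in each tissue, 12 groups and 72 treated samples, and each sample was hybridised as a dye-swap pair against RNA pooled from 6 untreated db/db mice, 1 pool for each tissue. A value is therefore log2 of the treated mouse over the pool, and 0 means equal to the pool. The pool was 1 control sample per tissue, so the spread between untreated mice entered no test, and a nondiabetic group was not analysed here. The methods took both tissues from the mice of the study, but the labels do not say whether a number marks the same mouse in liver and IAT. A further 12 samples were technical repeats of liver RNA.

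Cells sense foreign nucleic acid through receptors such as RIG-I (Ddx58), MDA5 (Ifih1) and their regulator LGP2 (Dhx58), and then make type I interferon. Type I interferon acts through its receptor on transcription factors that bind a DNA element called ISRE, whereas interferon-γ acts mainly through an element called GAS. The genes switched on include effectors against viruses (the OAS enzymes, which lead to RNA decay, the Mx GTPases, the IFIT, IFITM, viperin and PKR proteins), further transcription factors (the IRF family), the guanylate-binding GTPases and brakes such as Usp18, which removes the ubiquitin-like ISG15 and damps signalling from the receptor. In adipose tissue and liver, macrophages express several of these genes at a high basal level, Irf5 and Irf8 among them.

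Promoter sequence from RefSeq (GRCm38.p6) was at hand for 27 of the 32 genes. The 250 bases before the start site held the ISRE core, GAAANNGAAA on either strand, in 10 of the 27 (37%), against 936 of 27025 genes (3.46%). They held the GAS core, TTCNNNGAA, which reads the same on both strands, in 7 of the 27 (25.9%), against 2197 of the 27025 genes (8.13%). A match is a description of the letters only. The stretches below, each of 100 bases upstream of the start and read 5′ to 3′ on the gene's strand, are shown because these genes carry results below and hold 1 or more of the cores, which are in capitals.
Oas1a (chr5:120907526-120907625, minus strand): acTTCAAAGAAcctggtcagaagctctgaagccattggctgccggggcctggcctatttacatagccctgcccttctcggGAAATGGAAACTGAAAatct
Ifit1 (chr19:34640734-34640833, plus strand): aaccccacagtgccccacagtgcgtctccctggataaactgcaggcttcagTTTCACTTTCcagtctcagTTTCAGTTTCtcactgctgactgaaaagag
Ifit3 (chr19:34583337-34583436, plus strand): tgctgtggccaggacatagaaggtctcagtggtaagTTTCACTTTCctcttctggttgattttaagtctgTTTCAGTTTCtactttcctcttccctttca
Rsad2 (chr12:26456543-26456642, minus strand): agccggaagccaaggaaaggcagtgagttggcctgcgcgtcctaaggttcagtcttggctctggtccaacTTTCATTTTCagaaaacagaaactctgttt
Gbp2 (chr3:142620534-142620633, plus strand): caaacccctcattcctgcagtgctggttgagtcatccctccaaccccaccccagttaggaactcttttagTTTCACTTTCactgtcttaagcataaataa
Gbp3 (chr3:142559935-142560034, plus strand): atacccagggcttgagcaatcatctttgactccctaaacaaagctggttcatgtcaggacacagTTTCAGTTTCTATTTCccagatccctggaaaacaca
Irf8 (chr8:120736134-120736233, plus strand): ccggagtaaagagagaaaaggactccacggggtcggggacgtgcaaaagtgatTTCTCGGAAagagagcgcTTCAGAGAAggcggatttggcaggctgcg
The stretch of Oas1a holds both cores, those of Ifit1 and Ifit3 hold the ISRE core as a pair, and that of Irf8 holds the GAS core as a pair.

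Of all probes, 43.4 to 65.8% were well above background in the treated channel of the liver arrays and 61.8 to 78.2% in that of the IAT arrays. The labelled tissues fitted their markers: 10 of 10 adipocyte markers were above background on all arrays in IAT and 6 of 10 in liver, and 4 of 12 hepatocyte markers in IAT and 12 of 12 in liver. Each slide held 1 group only, and no scan day held samples of both tissues. In liver the summed adipocyte markers were 2.12 to 5.11 above the pool on the log2 scale in the treated mice. These markers include Fabp4 and Lpl, which the study reported as higher in liver with RSG. The part of adipocytes in this sum was not tested. The samples numbered 5 at RSG 84 µmol/kg stood apart for these genes, with 13 of the 23 outlying values found in 336 sets of 6 mice, 9 in liver and 4 in IAT, and the counts for those groups are given with and without them.

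In liver the 28 genes did not move as one (the map of group means shows both tissues). Against the pool, 2 genes were higher in all 6 groups, the 2′-5′-oligoadenylate synthetases Oas2 and Oas1a, and 2 were lower in all 6, the membrane proteins Ifitm1 and Ifitm3, which restrict viral entry. Over the 6 groups 14 genes passed the test only as higher, 9 only as lower and 5 in no group, and no gene passed in both directions. At 28, 84 and 280 µmol/kg RSG, 10, 14 and 7 genes were higher and 5, 2 and 3 lower, and at the same doses of S 5, 11 and 8 were higher and 7, 3 and 3 lower (limma, Benjamini-Hochberg over 25256 sequences, adjusted p under 0.05). These are 53.6, 57.1 and 35.7% of the 28 genes with RSG and 42.9, 50 and 39.3% with S, beside 59.4, 57.7 and 51.9% of all sequences with RSG and 52.2, 55.3 and 66.9% with S, so the share called was below that of all sequences in every group. By direction, 25.5, 24.6 and 22.1% of all sequences were higher with RSG and 33.8, 33.1 and 29.8% lower, and 23.7, 24.5 and 28.8% were higher with S and 28.5, 30.8 and 38.1% lower. The 28 genes had 35.7, 50 and 25% higher with RSG and 17.9, 39.3 and 28.6% higher with S, which is above the share of all sequences in 4 of the 6 groups, while the share of the 28 genes that was lower, 7.14 to 25%, was below it in all 6. Their median value was 0.08, 0.37 and 0.12 with RSG and -0.09, 0.27 and 0.17 with S, beside -0.05 to -0.02 over all sequences. Without mouse 5, 14 of the 28 genes passed at RSG 84 µmol/kg, in place of 16. With scan day as a block 0 of the 28 genes passed at S 28 µmol/kg, in place of 12, and 4 values turned sign: Ddx58 at S 28 (-0.37), Oasl1 and Rsad2 at S 84 (-0.03 and -0.04) and Isg20 at S 280 µmol/kg (-0.03).

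**Figure D1:**
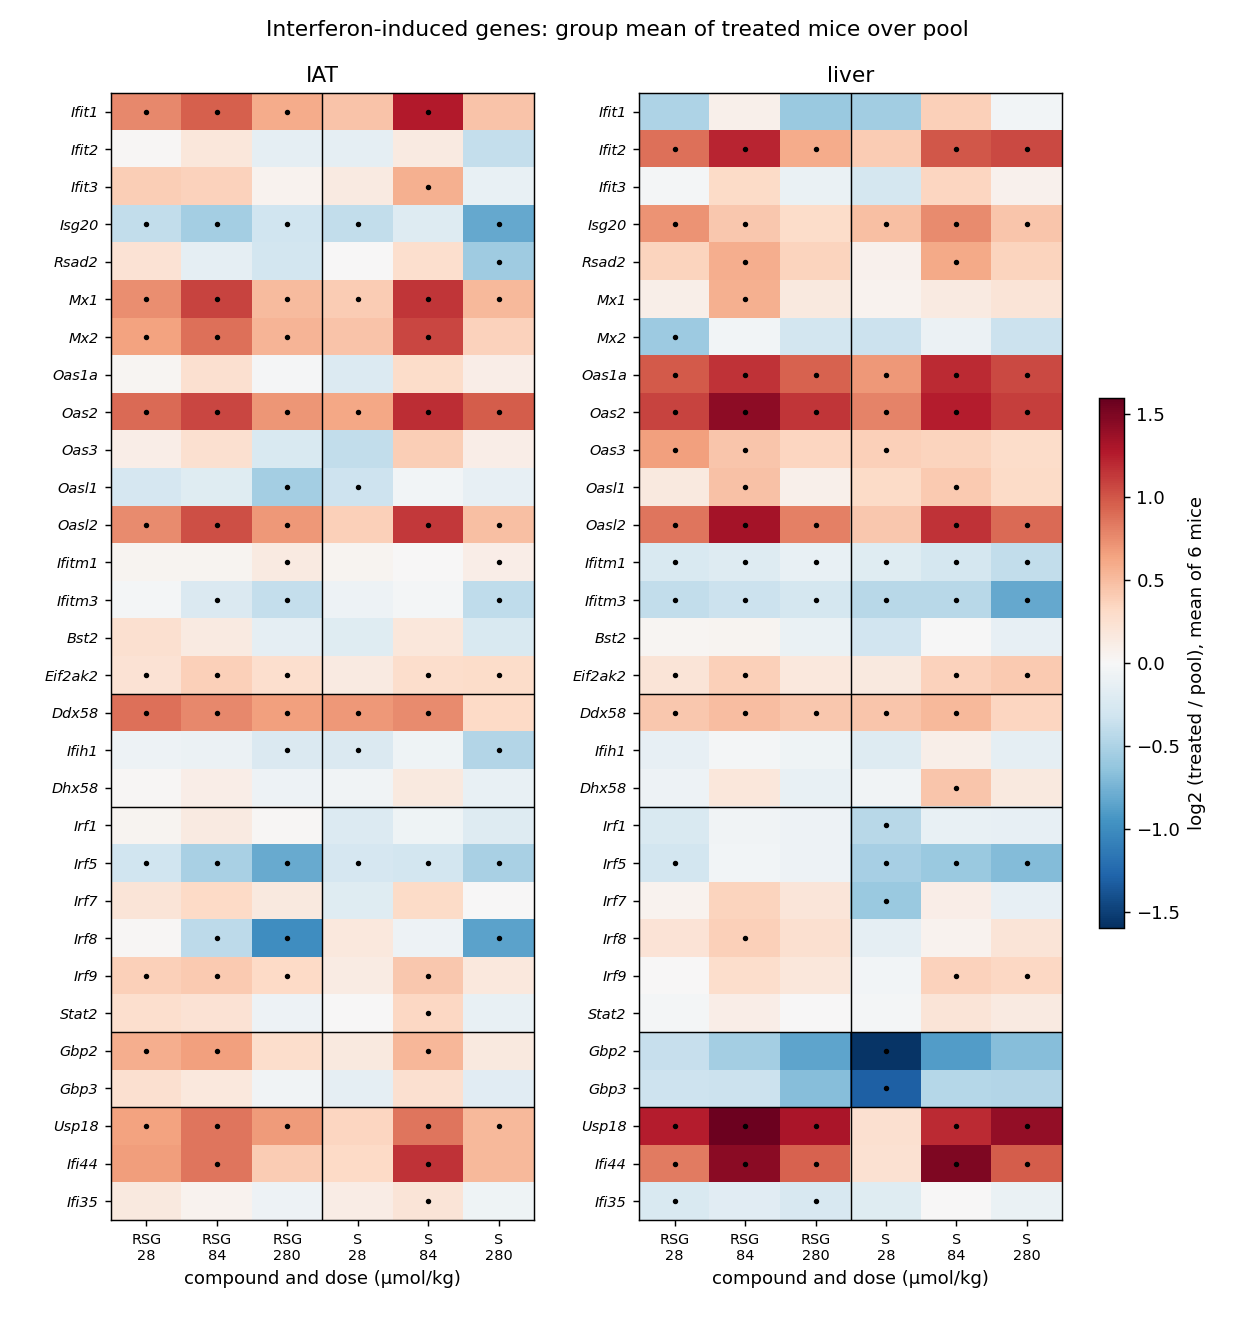
Colour gives the group mean of log2 (treated / pool) over 6 mice for each gene (rows, grouped by role) and each compound and dose in µmol/kg (columns), in IAT (left) and liver (right); a dot marks adjusted p under 0.05. Oas2 passed as higher in all 12 columns, Oas1a in the 6 liver columns and in no IAT column, and Irf8 reaches -1.0 at 280 µmol/kg RSG in IAT.

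Oas2 was higher than the pool in every liver group. All these groups were read against the same 1 pool, so they are not independent readings of a rise. In RSG livers its lowest, median and highest values were 0.36, 1.19 and 1.39 at 28, 1.04, 1.40 and 1.88 at 84 and 0.18, 1.17 and 1.78 at 280 µmol/kg. In S livers they were 0.30, 0.76 and 1.33 at 28, 1.03, 1.28 and 1.46 at 84 and 0.43, 1.21 and 1.62 at 280 µmol/kg. Every one of the 36 treated mice was above the pool, and the group means of 1.08, 1.43 and 1.14 with RSG and 0.79, 1.26 and 1.10 with S all passed the test (adjusted p = 1.4e-04 or less). Oas1a, another synthetase, gave 0.13, 1.07 and 1.57 at 28, 0.72, 1.29 and 1.48 at 84 and -0.22, 1.12 and 1.51 at 280 µmol/kg with RSG and 0.24, 0.58 and 1.28 at 28, 0.79, 1.16 and 1.6 at 84 and 0.39, 1.33 and 1.40 at 280 µmol/kg with S. One mouse, at RSG 280 µmol/kg, lay below the pool, and the largest mean was 1.19 at S 84 µmol/kg (2.29-fold).

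Usp18, the protease that removes ISG15, averaged 1.57 at RSG 84 µmol/kg in liver (2.96-fold), and 1.35 without mouse 5. Its values in RSG livers were 0.63, 0.98 and 2.29 at 28, 0.85, 1.52 and 2.65 at 84 and 1.07, 1.33 and 1.51 at 280 µmol/kg, and every RSG mouse was above the pool. In S livers they were -0.34, 0.33 and 0.75 at 28, 0.41, 1.20 and 1.96 at 84 and 0.90, 1.46 and 1.72 at 280 µmol/kg. The mean at S 28 µmol/kg, 0.26, did not pass the test (adjusted p = 0.28) and 2 of its mice were below the pool, whereas S 280 µmol/kg gave 1.40 ± 0.30 (SD, n = 6).

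Ifit2, which blocks translation of foreign RNA, was higher in 5 of the 6 liver groups. It gave 0.20, 0.86 and 1.45 at 28, 0.55, 1.14 and 2.30 at 84 and -0.11, 0.83 and 1.01 at 280 µmol/kg with RSG and -0.10, 0.41 and 1.12 at 28, 0.54, 0.96 and 1.53 at 84 and 0.31, 1.19 and 1.85 at 280 µmol/kg with S. Only S 28 µmol/kg did not pass (adjusted p = 0.089). Its relatives did not follow: the means of Ifit1 were -0.50, 0.08 and -0.60 with RSG and -0.56, 0.38 and -0.04 with S, those of Ifit3 were -0.03, 0.30 and -0.11 and -0.28, 0.34 and 0.07, and neither passed in any liver group. Oasl2, an OAS-like protein, also passed in 5 of the 6, with values of -0.29, 0.80 and 1.82 at 28, 0.62, 1.31 and 2.35 at 84 and -0.45, 0.99 and 1.42 at 280 µmol/kg in RSG livers. In S livers they were -0.14, 0.41 and 1.32 at 28, 0.45, 1.09 and 2.03 at 84 and 0.13, 1.16 and 1.3 at 280 µmol/kg.

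Several further genes passed as higher in part of the liver groups. Isg20, an exonuclease that degrades RNA, passed in 5 of 6 with means of 0.72, 0.43 and 0.29 for RSG and 0.48, 0.76 and 0.44 for S. Ifi44, a protein of the cytoplasm, passed in 5 by its brightest probe, with means of 0.83, 1.45 and 0.94 and 0.24, 1.49 and 0.97. In 3 of these leaving out a single mouse ended the call, and without mouse 5 its mean at RSG 28 µmol/kg was 0.57 (adjusted p = 0.18). A dimmer Ifi44 probe passed as higher at S 28 µmol/kg as well (1.09, adjusted p = 0.004). Eif2ak2, the RNA-activated kinase PKR, passed in 4, with values of -0.08, 0.13 and 0.61 at 28, 0.19, 0.31 and 0.86 at 84 and -0.07, 0.15 and 0.43 at 280 µmol/kg with RSG and -0.06, 0.12 and 0.33 at 28, 0.15, 0.38 and 0.57 at 84 and 0.23, 0.42 and 0.62 at 280 µmol/kg with S. Oas3 passed in 3 groups and Rsad2 (viperin) and Oasl1 in 2 each, with Mx1 and Irf8 in 1, RSG 84 µmol/kg. The Oas3 probe was dim in liver, well above background on 8.33 to 58.3% of the arrays of a group, so only its calls are given here. That of Mx1 was well above background in the treated channel on 41.7% of the arrays at RSG 84 µmol/kg. Without mouse 5 the RSG 84 µmol/kg means were 0.15 for Irf8 (adjusted p = 0.34), 0.39 for Mx1 (adjusted p = 0.20), 0.40 for Rsad2 (adjusted p = 0.13) and 0.40 for Oasl1 (adjusted p = 0.085), against 0.38, 0.57, 0.58 and 0.47 with it. The other Rsad2 call, at S 84 µmol/kg, was lost without mouse 3 (0.40, adjusted p = 0.13). The 2 dimmer Rsad2 probes did not pass at RSG 84 (0.18 and 0.30) or at S 84 µmol/kg (0.29 and 0.41).

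Ddx58 (RIG-I) passed as higher in 5 of the 6 liver groups by its brightest probe, with means of 0.43, 0.49 and 0.43 for RSG and 0.44, 0.52 and 0.34 for S. Its other probes did not give 1 answer. The pair next in brightness lay between -0.27 and 0.11 over the 6 groups, with 1 value called in the opposite direction (-0.27 at RSG 28 µmol/kg, adjusted p = 0.032), and the dimmest lay between 0.45 and 0.57. Leaving out any 1 of the 6 mice ended the call at RSG 280 µmol/kg.

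**Figure D2:**
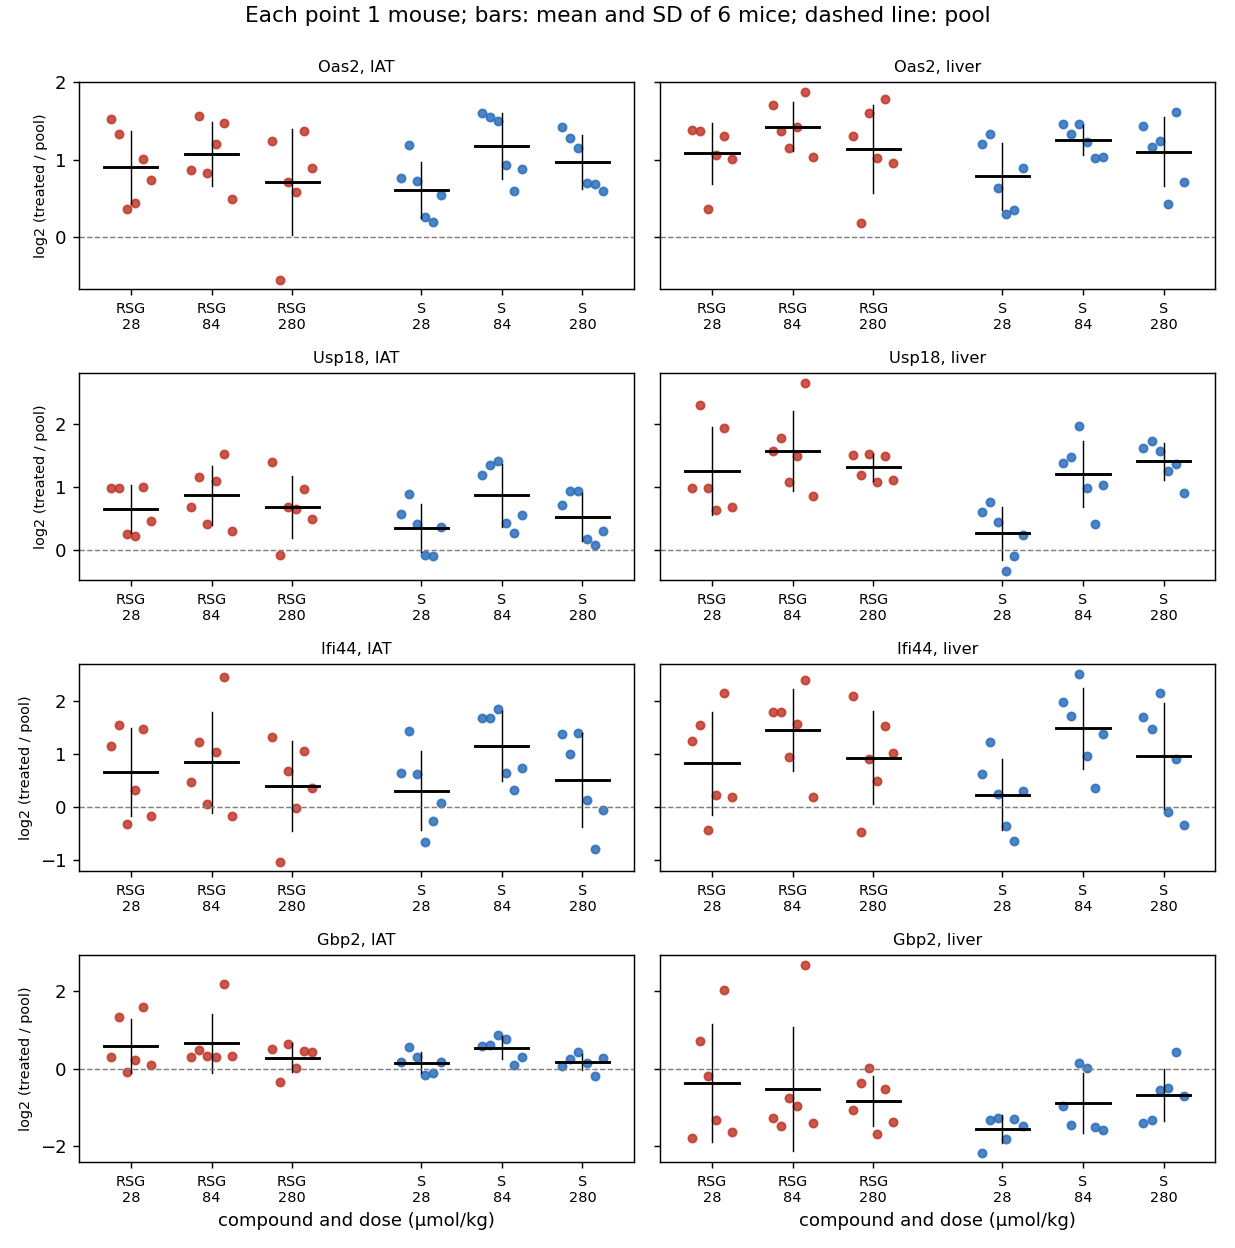
Each point is 1 mouse, as log2 (treated / pool), for Oas2, Usp18, Ifi44 and Gbp2 (rows) in IAT (left) and liver (right), with RSG in red, S in blue and doses in µmol/kg; bars are the mean and SD of 6 mice and the dashed line is the pool. Oas2 lies above the pool in every liver mouse, while Gbp2 in liver runs between -2.18 and 2.68 over all mice.

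The genes lower than the pool in liver were led by the IFITM pair. Ifitm1 moved little and evenly: its values were -0.35, -0.23 and -0.14 at 28, -0.27, -0.21 and -0.15 at 84 and -0.20, -0.13 and 0.02 at 280 µmol/kg in RSG livers and -0.29, -0.19 and -0.11 at 28, -0.37, -0.32 and -0.15 at 84 and -0.54, -0.38 and -0.32 at 280 µmol/kg in S livers, and 1 of the 36 mice lay above the pool. Its means of -0.24, -0.21 and -0.12 with RSG and -0.19, -0.28 and -0.40 with S all passed the test (adjusted p = 0.003 or less). Ifitm3 was lower by more, with values of -0.67, -0.44 and 0.16 at 28, -0.84, -0.32 and 0.17 at 84 and -0.61, -0.23 and 0.03 at 280 µmol/kg in RSG livers and -0.72, -0.47 and -0.15 at 28, -0.68, -0.53 and -0.13 at 84 and -1.21, -0.74 and -0.48 at 280 µmol/kg in S livers. Its largest drop was -0.82 ± 0.27 (SD, n = 6) at S 280 µmol/kg, where no mouse reached the pool. The Ifitm3 call at RSG 280 µmol/kg (-0.28, adjusted p = 0.030) held in 3 of the 6 sets that left out 1 mouse. Without mouse 4 the mean there was -0.21 (adjusted p = 0.14).

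Irf5, a transcription factor of macrophages, was lower in the 3 S groups and at RSG 28 µmol/kg. Its values in RSG livers were -0.54, -0.31 and 0.09 at 28, -0.44, -0.02 and 0.28 at 84 and -0.50, -0.05 and 0.31 at 280 µmol/kg. In S livers they were -0.85, -0.63 and -0.14 at 28, -0.83, -0.61 and -0.33 at 84 and -1.13, -0.74 and -0.06 at 280 µmol/kg, all below the pool. The call at RSG 28 µmol/kg, -0.29, was lost in 4 of the 6 sets that left out 1 mouse. Irf1, induced by interferon-γ, and Irf7, a driver of type I interferon, passed as lower at S 28 µmol/kg only. There the lowest, median and highest values were -0.78, -0.56 and -0.10 for Irf1 and -0.99, -0.64 and 0.20 for Irf7, of which the highest Irf7 mouse was above the pool. With 1 mouse left out, the Irf1 call held in 2 of the 6 sets and the Irf7 call in 1. A dimmer Irf1 probe did not pass there (-0.34, adjusted p = 0.086).

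Gbp2 and Gbp3, GTPases that attack vacuoles of intracellular microbes, had the lowest group means of the 28 genes in liver, at S 28 µmol/kg. In RSG livers Gbp2 gave -1.79, -0.76 and 2.02 at 28, -1.49, -1.12 and 2.68 at 84 and -1.69, -0.80 and 0.01 at 280 µmol/kg. In S livers it gave -2.18, -1.41 and -1.27 at 28, -1.58, -1.21 and 0.15 at 84 and -1.41, -0.64 and 0.42 at 280 µmol/kg. Only S 28 µmol/kg passed, with -1.57 ± 0.36 (SD, n = 6, adjusted p = 0.002). Each of the other groups had at least 1 mouse above the pool. Gbp3 gave -1.53, -0.76 and 1.5 at 28, -1.54, -0.65 and 2.26 at 84 and -1.65, -0.52 and -0.03 at 280 µmol/kg in RSG livers and -1.78, -1.23 and -0.80 at 28, -1.08, -0.58 and 0.79 at 84 and -1.03, -0.58 and 0.22 at 280 µmol/kg in S livers, and its S 28 µmol/kg mean was -1.31 ± 0.35 (adjusted p = 0.002). Mx2, a dynamin-like GTPase, passed as lower at RSG 28 µmol/kg, with -1.51, -0.49 and 0.02, and Ifi35 at RSG 28 and 280 µmol/kg, with -0.57, -0.28 and 0.12 and -0.51, -0.23 and 0.04. Ifit1, Ifit3, Stat2, Ifih1 and Bst2 (tetherin) passed in no liver group, with means between -0.60 and 0.38.

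In IAT, 2 genes were higher than the pool in all 6 groups, Oas2 and the GTPase Mx1, and 1, Irf5, was lower in all 6. Over the groups 14 genes passed only as higher, 7 only as lower and 7 in none, and none passed both ways. At 28, 84 and 280 µmol/kg RSG, 9, 10 and 9 genes were higher and 2, 4 and 6 lower, and with S 3, 13 and 6 were higher and 4, 1 and 6 lower (limma, over 30796 sequences). These are 39.3, 50 and 53.6% of the genes with RSG and 25, 50 and 42.9% with S, beside 46.9, 65.6 and 67% of all sequences with RSG and 47.6, 55.7 and 74.7% with S, a share again below the background. By direction, 27.6, 38.5 and 37.1% of all sequences were higher with RSG and 19.3, 27.1 and 29.8% lower, and 28.5, 33.4 and 42.7% were higher with S and 19.1, 22.3 and 32% lower. Of the 28 genes 32.1, 35.7 and 32.1% were higher with RSG and 10.7, 46.4 and 21.4% with S, above the share of all sequences in 2 of the 6 groups. Their medians were 0.23, 0.24 and 0.00 with RSG and 0.03, 0.29 and -0.04 with S, beside 0.03 to 0.06 over all sequences. Without mouse 5, 12 genes passed at RSG 84 µmol/kg, in place of 14. With scan day as a block 2, 6, 3 and 7 genes passed at RSG 28, RSG 280, S 28 and S 84 µmol/kg, in place of 11, 15, 7 and 14. In that fit Oas2 did not pass at RSG 28, Mx1 at RSG 28, RSG 280 and S 28, and Irf5 at RSG 28, S 28 and S 84 µmol/kg.

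Oas2 and Mx1 were higher than the shared IAT pool in every IAT group, Mx1 by a narrow margin at S 28 µmol/kg. The values of Oas2 were 0.37, 0.87 and 1.53 at 28, 0.49, 1.04 and 1.57 at 84 and -0.55, 0.81 and 1.37 at 280 µmol/kg with RSG and 0.20, 0.64 and 1.19 at 28, 0.60, 1.22 and 1.6 at 84 and 0.60, 0.92 and 1.42 at 280 µmol/kg with S. Mx1, which traps viral nucleoproteins, gave -0.11, 0.85 and 1.18 at 28, 0.58, 1.08 and 1.52 at 84 and -0.39, 0.64 and 1.05 at 280 µmol/kg with RSG and -0.01, 0.25 and 1.09 at 28, 0.71, 1.03 and 1.73 at 84 and 0.14, 0.44 and 0.94 at 280 µmol/kg with S. For both, 84 µmol/kg had the largest mean with either compound, 1.07 and 1.18 for Oas2 and 1.08 and 1.14 for Mx1 (2.2-fold at S 84 µmol/kg), although the difference between doses was tested only for 280 against 28 µmol/kg. The S 28 µmol/kg call of Mx1 (adjusted p = 0.048) held in 3 of the 6 sets that left out 1 mouse, and without mouse 2 the mean was 0.27 (adjusted p = 0.24). A dimmer Mx1 probe did not pass at S 28 (0.37, adjusted p = 0.092) or S 280 µmol/kg (0.31, adjusted p = 0.12). Mx2 passed at the 3 RSG doses and at S 84 µmol/kg, with means of 0.64, 0.88 and 0.54 for RSG and 0.46, 1.07 and 0.37 for S.

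Oasl2 passed in 5 of the 6 IAT groups. Its values were 0.20, 0.72 and 1.31 at 28, 0.25, 1.02 and 1.71 at 84 and -0.53, 0.79 and 1.3 at 280 µmol/kg with RSG. With S they were -0.20, 0.39 and 1.09 at 28, 0.65, 1.03 and 1.76 at 84 and -0.08, 0.48 and 1.09 at 280 µmol/kg. Usp18 also passed in 5, with means of 0.64, 0.86 and 0.68 for RSG and 0.34, 0.86 and 0.52 for S, so that only S 28 µmol/kg did not pass. Eif2ak2 passed in 5, between 0.23 and 0.38, and Ifit1 in 4, with means of 0.77, 0.96 and 0.59 for RSG and 1.27 at S 84 µmol/kg (2.42-fold). The largest adjusted p for a call of Ifit1 was 0.047, at RSG 280 µmol/kg, which was lost in 4 of the 6 sets without 1 mouse. Gbp2 passed in 3 groups, with 0.29, 0.33 and 2.19 at RSG 84 µmol/kg, where the mean of 0.65 was 0.34 (adjusted p = 0.070) without mouse 5. Ifi44 passed in 2, and its mean at RSG 84 µmol/kg was 0.85 with and 0.53 (adjusted p = 0.17) without that mouse. A dimmer Ifi44 probe did not pass at that dose (0.52, adjusted p = 0.099).

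Ddx58 was higher in 5 of the 6 IAT groups by its brightest probe. It gave 0.60, 0.83 and 1.29 at 28, 0.43, 0.77 and 1.12 at 84 and 0.37, 0.52 and 1.49 at 280 µmol/kg with RSG. With S it gave 0.35, 0.72 and 0.98 at 28, 0.35, 0.62 and 1.46 at 84 and -0.39, 0.44 and 0.91 at 280 µmol/kg. The dimmest of the other 3 probes was called higher in all 6 groups, with means of 0.50 to 1.33, whereas the remaining pair lay between -0.21 and 0.30. The other sensor tested, Ifih1 (MDA5), had values of -0.32, -0.01 and 0.07 at 28, -0.50, -0.16 and 0.35 at 84 and -0.47, -0.22 and 0.08 at 280 µmol/kg with RSG and -0.41, -0.23 and 0.07 at 28, -0.31, -0.13 and 0.26 at 84 and -0.72, -0.52 and -0.05 at 280 µmol/kg with S, and passed as lower at RSG 280, S 28 and S 280 µmol/kg. The dimmer probe of Ifih1 had the opposite sign in all 6 IAT groups, between 0.06 and 0.48, and passed as higher in 3, so no direction is given for Ifih1. Likewise the dimmer probe of Ifit2 was called higher in 5 IAT groups (0.47 to 0.74), in which its brighter probe lay between -0.15 and 0.18 and was not called.

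The genes lower in IAT were led by 2 transcription factors of myeloid cells. Irf8, which directs the development of monocytes and dendritic cells, gave -0.26, 0.06 and 0.38 at 28, -0.92, -0.42 and 0.04 at 84 and -1.13, -1.04 and -0.85 at 280 µmol/kg with RSG. With S it gave -0.08, 0.15 and 0.44 at 28, -0.44, -0.02 and 0.01 at 84 and -1.04, -0.90 and -0.59 at 280 µmol/kg. At 280 µmol/kg all 12 mice lay at -0.59 or below, and the group means were -1.0 ± 0.12 with RSG and -0.86 ± 0.18 with S (SD, n = 6, adjusted p = 5.6e-12 and 1.0e-10), about 0.5 and 0.55 times the level of the pool. A second, dimmer Irf8 probe gave -0.79 and -0.60 at these doses. Irf5 gave -0.56, -0.29 and -0.20 at 28, -0.86, -0.41 and -0.33 at 84 and -1.29, -0.74 and -0.44 at 280 µmol/kg with RSG and -0.49, -0.27 and -0.05 at 28, -0.91, -0.18 and 0.16 at 84 and -1.01, -0.44 and -0.24 at 280 µmol/kg with S, and its means of -0.32, -0.52 and -0.81 and -0.27, -0.29 and -0.52 all passed. The S 28 µmol/kg call (adjusted p = 0.034) held in 1 of the 6 sets that left out 1 mouse, with -0.23 (adjusted p = 0.12) without mouse 1. At S 84 µmol/kg the call held in 4 of 6, 1 mouse lay above the pool and the mean without mouse 1 was -0.16 (adjusted p = 0.20).

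Part of the macrophage markers were also lower in IAT at 280 µmol/kg. Of 16 macrophage markers tested in IAT, none was higher and 9 were lower at RSG 280 µmol/kg, and 2 were higher and 12 lower at S 280 µmol/kg, with a median of -0.35 in both, beside 37.1% higher and 29.8% lower of all sequences at RSG 280 and 42.7 and 32% at S 280 µmol/kg. At 28 µmol/kg 2 were higher and 1 lower with RSG, and 3 were higher and 1 lower with S, and at 84 µmol/kg 3 were higher and 7 lower with RSG, and 2 were higher and 3 lower with S. Their summed level over 17 genes ran between -1.15 and -0.39 at RSG 280, between -1.23 and -0.28 at S 280, between -0.29 and 0.12 at RSG 28 and between -0.28 and 0.28 at S 28 µmol/kg, and none of the 17 was at background throughout. At 28 and 84 µmol/kg, where Irf5 was also called lower, the median of this sum was -0.09 and -0.23 with RSG and 0.06 and 0.02 with S. The summed level of 7 dendritic cell markers had a median of -0.45 at RSG 280 and -0.26 at S 280 µmol/kg, and of -0.10 and 0.15 at 28 µmol/kg. A list of 6 plasmacytoid dendritic cell markers held Siglech, Ccr9, Tcf4, Klk1, Pacsin1 and Cox6a2. The median of their sum was -0.93 at RSG 280 and -1.65 at S 280 µmol/kg, and lay between -1.15 and -0.63 in the other 4 groups. The part of other cells in this sum, epithelium and muscle among them, was not tested. The summed epithelial and skeletal muscle markers had medians between -3.95 and -1.85 and between -3.03 and -1.15 over the 6 IAT groups. The part of these cells in the values of Irf8 and Irf5 was not tested, and in tissue RNA fewer cells of a type and less RNA per cell cannot be told apart.

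Ifitm3 was lower in IAT at the higher doses, with -0.18, -0.08 and 0.31 at 28, -0.38, -0.23 and 0.00 at 84 and -0.59, -0.33 and -0.28 at 280 µmol/kg for RSG and -0.18, -0.10 and 0.10 at 28, -0.20, -0.02 and 0.12 at 84 and -0.66, -0.39 and -0.23 at 280 µmol/kg for S. At 280 µmol/kg every mouse of both compounds lay at -0.23 or below, and RSG 84 µmol/kg also passed. Isg20 was lower in 5 of the 6 groups, with values of -0.53, -0.35 and -0.25 at 28, -0.76, -0.53 and -0.34 at 84 and -0.83, -0.39 and 0.58 at 280 µmol/kg for RSG. Those for S were -0.57, -0.37 and -0.26 at 28, -0.64, -0.49 and 0.54 at 84 and -0.88, -0.85 and -0.74 at 280 µmol/kg, and at S 280 µmol/kg all 6 mice lay within a narrow range. Oasl1, an OAS-like protein, passed as lower at RSG 280 and S 28 µmol/kg, with -1.23, -0.51 and 0.04 and -0.43, -0.33 and -0.22, and Rsad2 at S 280 µmol/kg, with -1.05, -0.64 and 0.14. Ifitm1, lower in liver, was higher in IAT at 280 µmol/kg, with -0.04, 0.15 and 0.29 for RSG and 0.05, 0.10 and 0.17 for S. By their brightest probe, Ifit3, Ifi35 and Stat2 passed as higher at S 84 µmol/kg only, at 0.57, 0.21 and 0.33. The Ifi35 and Stat2 calls each held in 3 of the 6 sets that left out 1 mouse. A dimmer Ifit3 probe also passed at RSG 84 µmol/kg (0.55, adjusted p = 0.039). Ifit2, Irf1, Irf7, Oas1a, Oas3, Gbp3 and Bst2 passed in no IAT group by their brightest probe, with means between -0.39 and 0.39. A dimmer Irf1 probe passed as higher at RSG 84 (0.34, adjusted p = 0.005) and RSG 280 µmol/kg (0.24, adjusted p = 0.040). The members matched only by accession were not counted above. Irf9, a subunit of the ISRE-binding complex, had means of 0.38, 0.42 and 0.32 with RSG and 0.13, 0.43 and 0.17 with S in IAT and 0.01, 0.28 and 0.18 and -0.04, 0.37 and 0.33 in liver, and passed as higher in 4 IAT and 2 liver groups. Dhx58 passed in 1 group, liver at S 84 µmol/kg (0.44).

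**Figure D3:**
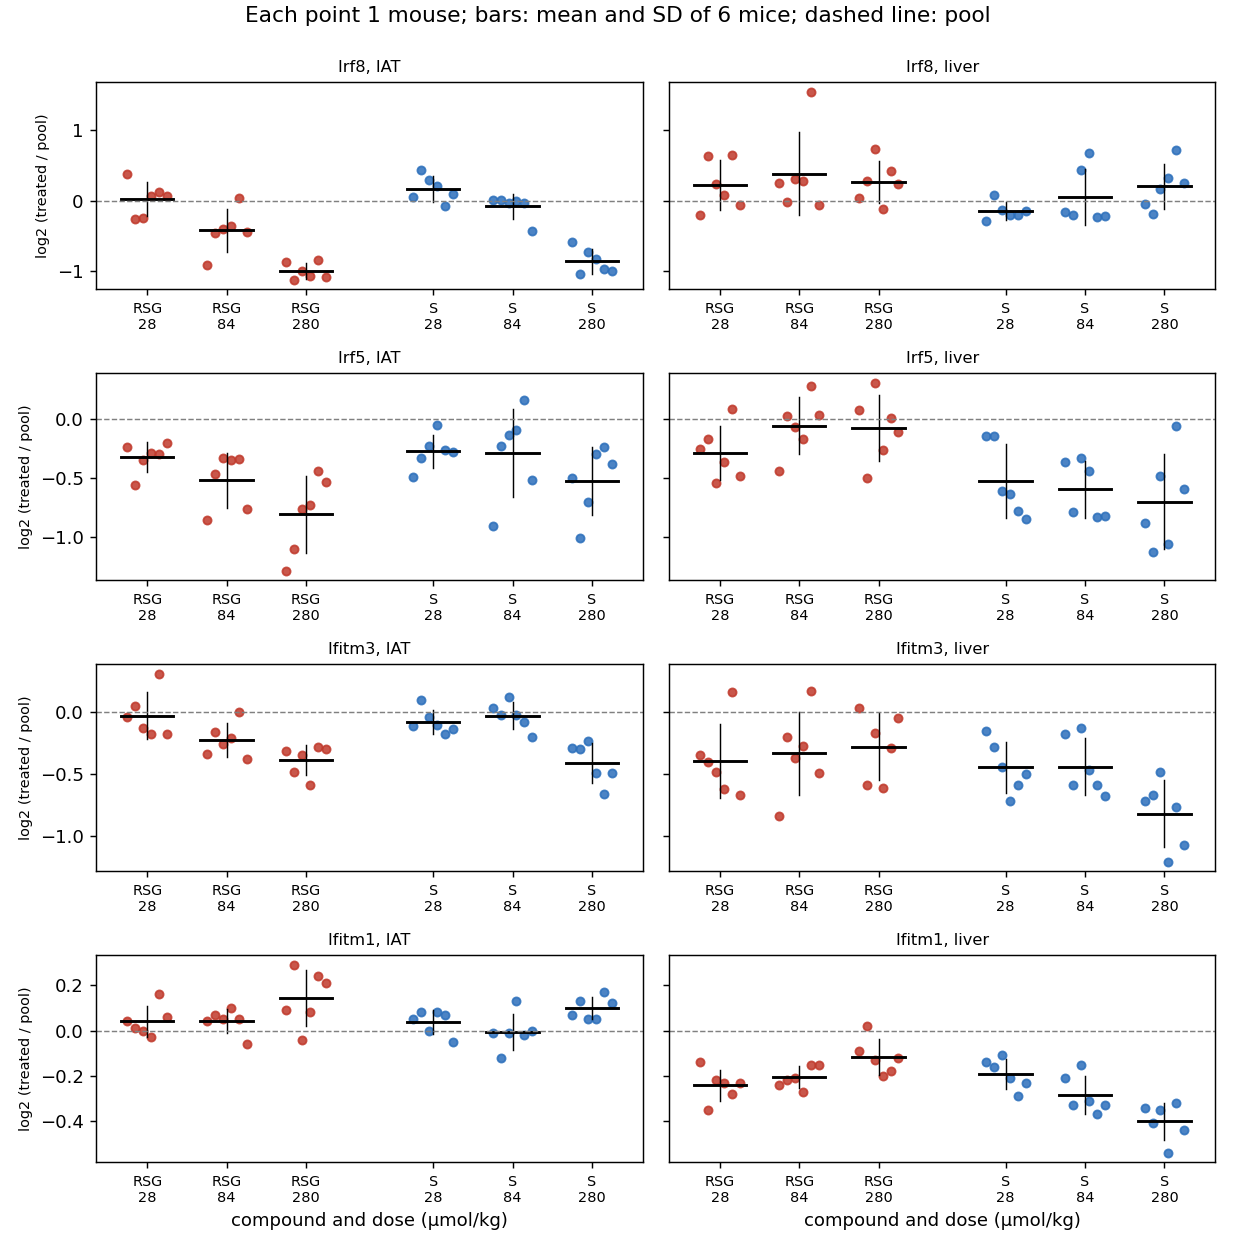
Each point is 1 mouse, as log2 (treated / pool), for Irf8, Irf5, Ifitm3 and Ifitm1 (rows, each with its own scale) in IAT (left) and liver (right), with RSG in red, S in blue and doses in µmol/kg; bars are the mean and SD of 6 mice and the dashed line is the pool. In IAT the 12 mice at 280 µmol/kg have Irf8 values of -0.59 or below, under all 12 mice at 28 µmol/kg.

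The compounds were compared at matched molar doses, in 3 comparisons per tissue with p-values adjusted over all sequences of each. In liver at 280 µmol/kg, 3 genes differed, all higher with RSG than with S (10.7% of the 28, beside 28.6% of all sequences). Ifitm1 averaged -0.12 ± 0.08 with RSG and -0.40 ± 0.08 with S (SD, n = 6 each; difference 0.28, 95% interval 0.19 to 0.38, adjusted p = 1.4e-05), and the 6 RSG mice all lay above the 6 S mice. Irf5 averaged -0.08 ± 0.28 with RSG and -0.70 ± 0.40 with S (difference 0.62, 95% interval 0.29 to 0.96, adjusted p = 0.004), and Ifitm3 -0.28 ± 0.27 with RSG and -0.82 ± 0.27 with S (difference 0.54, 95% interval 0.23 to 0.85, adjusted p = 0.007). On the 1 scan day that held mice of both groups, 2 of each, the differences were 0.23, 0.28 and 0.75 for Ifitm1, Irf5 and Ifitm3, and with scan day as a block Irf5 did not pass (0.46). Of 16 macrophage markers tested in liver, 6 were higher and none lower at RSG 280 µmol/kg, and 2 were higher and 2 lower at S 280 µmol/kg. Beside them, 22.1% of all sequences were higher and 29.8% lower at RSG 280, and 28.8 and 38.1% at S 280 µmol/kg. Between the compounds 2 of the macrophage markers passed at this dose, Marco (1.54) and Mrc1 (0.24), both higher with RSG. The summed level of the macrophage markers ran between -0.20 and 0.93 with RSG and between -0.32 and 0.67 with S, and its part in the Irf5 difference was not tested. The next smallest p was that of Eif2ak2, with 0.17 ± 0.21 with RSG and 0.42 ± 0.14 with S, which did not pass (difference -0.24, 95% interval -0.47 to -0.01, adjusted p = 0.11).

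At the other doses in liver and at every dose in IAT no gene passed between the compounds by limma, beside 0.915 and 1.86% of all sequences at 28 and 84 µmol/kg in liver and 0.00649, 2.15 and 1.57% at 28, 84 and 280 µmol/kg in IAT. At an unadjusted p under 0.05 there were 3 and 1 genes in liver and 1, 2 and 2 in IAT. No scan day held mice of both compounds in any of these comparisons. Closest to passing were Usp18 in liver at 28 µmol/kg, with 1.25 ± 0.69 with RSG and 0.26 ± 0.42 with S (difference 0.99, 95% interval 0.43 to 1.55, adjusted p = 0.077), and Irf5 in liver at 84 µmol/kg, with -0.05 ± 0.24 with RSG and -0.60 ± 0.24 with S (difference 0.54, 95% interval 0.21 to 0.87, adjusted p = 0.081). In IAT at 280 µmol/kg the smallest p was that of Isg20, with -0.32 ± 0.55 with RSG and -0.82 ± 0.06 with S (difference 0.50, 95% interval 0.13 to 0.88, adjusted p = 0.13), followed by Oasl1 (difference -0.40, 95% interval -0.77 to -0.03, adjusted p = 0.21), Irf5 (difference -0.29, 95% interval -0.59 to 0.02, adjusted p = 0.27) and Ifih1 (difference 0.24, 95% interval -0.03 to 0.50, adjusted p = 0.29). Each of these 4 intervals holds differences of 0.5 in size.

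The dose was compared as 280 against 28 µmol/kg within a compound, where the pool cancels. In IAT with RSG, 3 genes passed, all lower at 280 µmol/kg (10.7% of the 28, beside 25.4% of all sequences), and with S 2 passed, both lower (7.14%, beside 43.5%). Irf8 was among them with both compounds. It averaged -1.0 ± 0.12 at 280 and 0.02 ± 0.24 at 28 µmol/kg RSG (difference -1.02, 95% interval -1.26 to -0.78, adjusted p = 1.7e-07), and -0.86 ± 0.18 at 280 and 0.17 ± 0.19 at 28 µmol/kg S (difference -1.03, 95% interval -1.27 to -0.79, adjusted p = 2.9e-08). The groups did not overlap with either compound. Ifitm3 averaged -0.38 ± 0.12 at 280 and -0.03 ± 0.19 at 28 µmol/kg RSG (difference -0.36, 95% interval -0.52 to -0.19, adjusted p = 0.001), and -0.41 ± 0.17 at 280 and -0.08 ± 0.10 at 28 µmol/kg S (difference -0.33, 95% interval -0.50 to -0.17, adjusted p = 0.001), again without overlap. Irf5 passed with RSG, at -0.81 ± 0.33 at 280 and -0.32 ± 0.13 at 28 µmol/kg (difference -0.49, 95% interval -0.79 to -0.18, adjusted p = 0.015), and without mouse 1 of the 280 µmol/kg group the difference was -0.39 (adjusted p = 0.056). No scan day held mice of both doses. With scan day as a block Irf8 gave -1.33 for RSG and still passed, whereas Ifitm3 and Irf5 with RSG did not. For S, Irf8 gave -1.05 and passed. The scan days of S 280 µmol/kg in IAT held no other group, however, so that fit could not separate day from group.

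In liver the dose comparison called no gene with RSG (3 sequences of all, 0.0119%; 1 gene at an unadjusted p under 0.05) and 2 genes with S (7.14%, beside 29.5%). Usp18 averaged 1.40 ± 0.30 at 280 and 0.26 ± 0.42 at 28 µmol/kg S (difference 1.14, 95% interval 0.58 to 1.70, adjusted p = 0.002), and the lowest mouse at 280 was above the highest at 28 µmol/kg. Ifitm1 averaged -0.40 ± 0.08 at 280 and -0.19 ± 0.07 at 28 µmol/kg S (difference -0.21, 95% interval -0.30 to -0.12, adjusted p = 4.7e-04), also without overlap. No scan day held liver samples of both these S doses. With scan day as a block Usp18 gave 1.53 and still passed, whereas Ifitm1 did not (-0.19).

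The response at 280 µmol/kg was compared between the tissues as the IAT ratio minus the liver ratio. Each tissue has its own pool, which does not cancel, and over all 24746 sequences tested in both the median of this difference was 0.11 with RSG and 0.16 with S. With RSG 4 genes were higher in IAT and 9 lower (46.4% of the 28, beside 61.5% of all sequences), and with S 3 were higher and 8 lower (39.3%, beside 73.6%). Irf8 was lower in IAT with both: it averaged -1.0 ± 0.12 in IAT and 0.26 ± 0.30 in liver with RSG (difference -1.26, 95% interval -1.61 to -0.92, adjusted p = 4.8e-09), and -0.86 ± 0.18 in IAT and 0.20 ± 0.32 in liver with S (difference -1.06, 95% interval -1.41 to -0.72, adjusted p = 2.0e-07), without overlap. Ifitm1 was higher in IAT, at 0.10 ± 0.05 in IAT and -0.40 ± 0.08 in liver with S (difference 0.50, 95% interval 0.41 to 0.59, adjusted p = 2.2e-15).

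The effectors split between the tissues. Oas1a was at -0.02 ± 0.69 in IAT and 0.95 ± 0.68 in liver with RSG (difference -0.97, 95% interval -1.5 to -0.44, adjusted p = 0.001), and at 0.10 ± 0.31 in IAT and 1.05 ± 0.49 in liver with S (difference -0.94, 95% interval -1.47 to -0.42, adjusted p = 0.001). Ifit2, Isg20, Rsad2 and Usp18 were also lower in IAT than in liver with both compounds, between -0.74 for Ifit2 and -0.61 for Isg20 with RSG and between -1.42 for Ifit2 and -0.88 for Usp18 with S. The Ifit2 differences are those of its brighter probe: the dimmer one, tested in IAT only, was at 0.47 with RSG and 0.15 with S there, against -0.15 and -0.38 for the brighter. Mx2 was higher in IAT with both, by 0.82 with RSG and 0.72 with S, and Ifit1 and Gbp2 with RSG, by 1.20 and 1.11. Oas3 was called lower in IAT with both compounds as well, but the probe read in both tissues was dim in liver and no size is given here. Leaving out single mice ended the RSG call for Isg20 in 1, Oasl1 in 1, Oas3 in 2, and Usp18, Rsad2 and Gbp2 in 6 of 12 sets each, and the S call for Mx2 in 3 and for Ifih1 in 8.

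Mice of the same group differed more in these genes than in most others. In liver the SD between mice of a group had a median of 0.46 over the 28 genes, between 0.07 for Ifitm1 and 1.04 for Gbp2, against 0.16 over 25256 sequences, and 21 of the 28 lay above the 90th percentile of all sequences, 0.36. In IAT the median was 0.42, between 0.08 for Ifitm1 and 0.82 for Ifi44, against 0.17 over 30796 sequences, and 13 of the 28 lay above the 90th percentile of 0.44. Technical repeats of liver RNA had a median SD of 0.05 in these genes and 0.07 over all sequences. They stood apart, however, from the sample that their file names tie them to, for Gbp3 at -2.12 to -2.07 beside -1.19. Read from only 1 array of each dye-swap pair, the median SD over the 28 genes was 0.45 in liver with either dye and 0.43 and 0.42 in IAT. These are descriptions with no test.

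**Figure D4:**
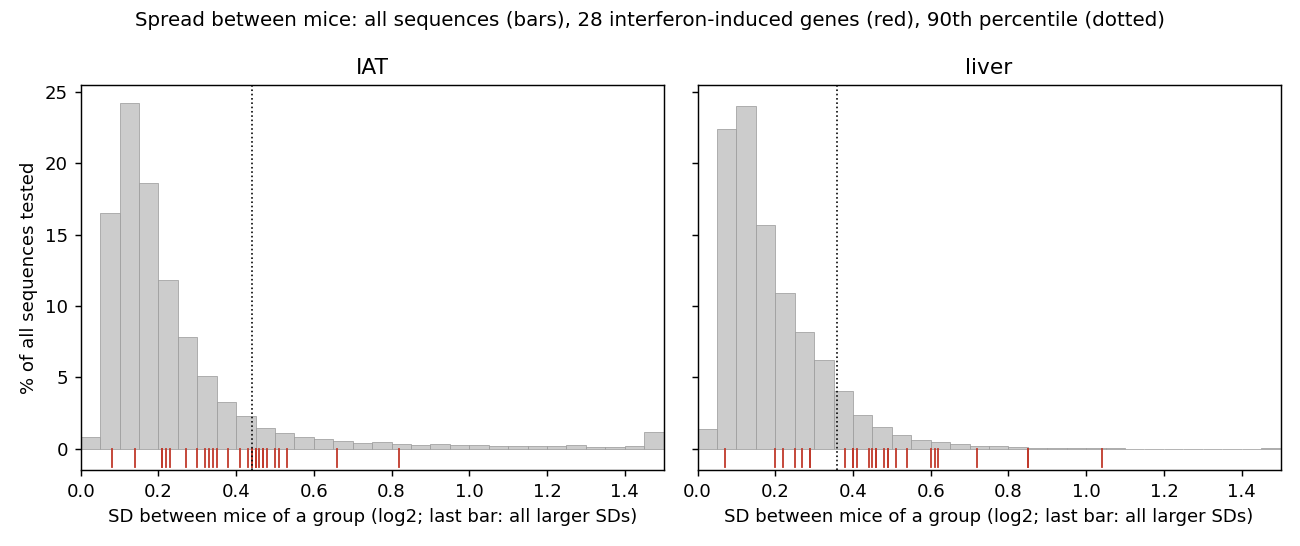
Bars give the share of all tested sequences, in %, by their SD between mice of a group on the log2 scale, in IAT (left) and liver (right); the last bar holds all larger SDs, red ticks mark the 28 interferon-induced genes and the dotted line the 90th percentile of all sequences. In liver 21 red ticks lie right of the line at 0.36, and in IAT 13 lie right of the line at 0.44.

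The level of the genes as a set also differed between mice of a group. The median over the 28 genes in a single mouse ran between -0.34 and 0.69 at RSG 28, -0.06 and 1.38 at RSG 84 and -0.37 and 0.38 at RSG 280 µmol/kg in liver, and between -0.37 and 0.30, -0.16 and 0.88, and -0.41 and 0.47 at the same doses of S. In IAT it ran between -0.04 and 0.60, -0.22 and 1.01, and -0.52 and 0.38 with RSG and between -0.21 and 0.42, 0.00 and 0.79, and -0.31 and 0.37 with S. The groups overlapped at all doses and with both compounds. The liver of mouse 5 at RSG 84 µmol/kg had 27 of the 28 genes above the pool. There the summed neutrophil markers were at 1.71, the macrophage markers at 0.98 and the B cell markers at 0.45. The medians of its group were 0.01, 0.27 and 0.44 in the same order. In the IAT sample numbered 5 at that dose the neutrophil markers were at 0.43 and the macrophage markers at -0.17. In the liver of mouse 3 at S 84 µmol/kg the neutrophil markers were at 1.38 and the macrophage markers at 0.35. The part of these cells in the values was not tested.

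**Figure D5:**
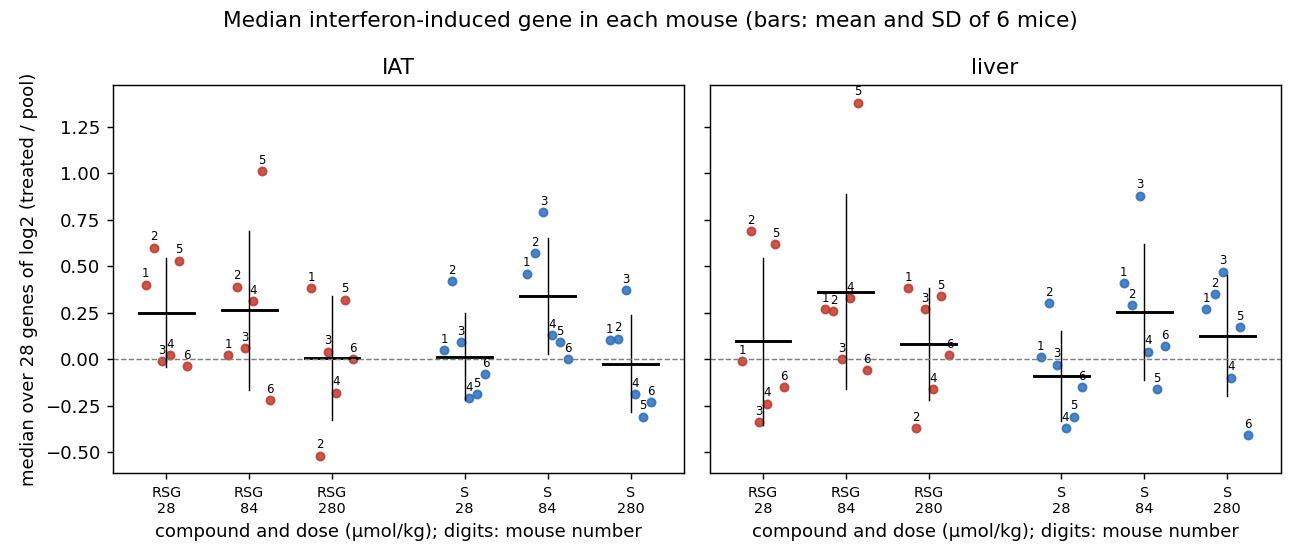
Each point is 1 mouse, as the median over the 28 genes of log2 (treated / pool), in IAT (left) and liver (right), with RSG in red, S in blue, doses in µmol/kg and the mouse number as a digit; bars are the mean and SD of 6 mice and the dashed line is the pool. The highest liver points are mouse 5 at RSG 84 µmol/kg, 1.38, and mouse 3 at S 84 µmol/kg, 0.88.

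Other genes of the pathway were read from lists written from general knowledge of it. Of all sequences, 37.1% were higher and 29.8% lower in IAT and 22.1% higher and 29.8% lower in liver at RSG 280 µmol/kg, and 42.7% were higher and 32% lower in IAT and 28.8% higher and 38.1% lower in liver at S 280 µmol/kg. Of interferons and their receptors, 14 were tested in liver, of which 4 were higher and none lower at RSG 280 µmol/kg and 5 were higher and none lower at S 280 µmol/kg. In IAT 15 were tested, 6 higher and 6 lower at RSG 280 and 7 higher and 5 lower at S 280 µmol/kg. Il10rb, a chain of the receptor for interferon-λ, was lower in IAT (-0.78 at RSG 280 and -0.75 at S 280 µmol/kg) and higher in liver (0.58 and 0.59). Of 17 genes of JAK-STAT signalling, 4 were higher and 11 lower in IAT and 2 higher and 3 lower in liver at RSG 280 µmol/kg. The kinases Jak1 and Jak2, which stand at the interferon receptors, were at -0.31 and -0.48 in IAT there, and Socs2, an inhibitor of cytokine signalling, at 1.10 in liver.

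Isg15, the ubiquitin-like partner of Usp18, was higher in IAT with RSG (0.78, 0.90 and 0.72) and at S 84 and 280 µmol/kg (1.12 and 0.69), and passed in no liver group, with means between -0.30 and 0.44. Of 16 genes of nucleic acid sensing tested in liver, 4 were higher and 5 lower at RSG 280 µmol/kg, with Tlr9, a receptor for DNA, at -0.30, and of 17 tested in IAT 3 were higher and 7 lower, with Tlr7, a receptor for RNA, at -0.74.

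Among 79 further interferon-induced genes, 67 were tested in liver. Of these 21, 26 and 17 were higher and 5, 4 and 6 lower at 28, 84 and 280 µmol/kg RSG, and 10, 20 and 17 higher and 21, 2 and 5 lower with S, with medians between -0.20 and 0.17. Of all sequences in liver, 22.1 to 28.8% were higher and 28.5 to 38.1% lower over these groups. In IAT 70 were tested, of which 18, 22 and 13 were higher and 6, 14 and 20 lower with RSG and 10, 19 and 5 higher and 10, 9 and 28 lower with S, with medians between -0.18 and 0.13. Of all sequences in IAT, 27.6 to 42.7% were higher and 19.1 to 32% lower. Ifi27l2b, which has a near copy in the genome that its probe may not tell apart, was at -2.47 in IAT and 3.07 in liver at RSG 280 µmol/kg (adjusted p = 3e-15 and 7.9e-23 against the pool), while Slfn5 (1.02) and Lgals3bp (0.69) were higher in liver and Ifitm2 (-0.41) and Tapbp (-0.47), a chaperone of antigen loading, lower in IAT.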

How the data were processed

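RNA of 72 treated samples (36 of liver and 36 of IAT) and 12 technical repeats was hybridised on 168 two-channel Agilent whole mouse genome arrays, 2 arrays with swapped dyes per sample, each against the pool of its tissue. Per the file headers, the authors read the scans with Agilent Feature Extraction 9.5, which subtracted the background and normalized the dyes. The deposited scanner output holds, per spot, a log10 ratio of Cy5 over Cy3, the raw and processed intensity of each channel and 0 or 1 marks for signals above background, saturated or outlying. The deposited value table holds 1 log ratio per sample, whose scale and sign were found from the arrays; 4 of its 84 columns did not follow their own arrays and were left out, and its exact zeros, 16.3%, were taken as missing.

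The log10 ratio was turned to log2 of treated over pool with the sign of the dye orientation, outlier spots were dropped, spots of a probe and then both arrays of a sample were averaged. Ratios of both arrays of a pair correlated at -0.946 to -0.646 before the sign was turned. Dim sequences were dropped: 50% or more of the arrays had to be marked as above background. This was asked of the treated channel in some group, or of the pool channel over all arrays of the tissue. Liver kept 25256 sequences and IAT 30796, with 24746 shared. One probe, the brightest in the tissue, stood for a gene. The 36 mice of a tissue entered 1 fit of limma 3.58.1 (R 4.3.3; Python 3.11.15, numpy 2.4.6, pandas 2.3.3 and matplotlib 3.10.9 for the rest), with Benjamini-Hochberg adjustment over all sequences and a call at an adjusted p under 0.05. The methods' own threshold was an unadjusted p under 0.001 with a fold change of at least 1.3, from an error model not used here, and it was applied to the limma p as an alternative. Comparisons were treated against pool, RSG against S at each dose, 280 against 28 µmol/kg, and IAT against liver at 280 µmol/kg. Slides and scan days held too few groups for a fixed term throughout: scan day was a fixed term over groups linked by shared days and a random block for S 280 µmol/kg in IAT, and slide was a random block.

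All members are named. Values over the mice are given for those with the smallest p in a tissue or contrast, and from other lists the genes with the smallest p at RSG 280 µmol/kg. The members and lists were chosen with earlier results of these data known. Alternatives were normexp background correction (offset 50) with loess, the deposited table, other filters, the mean over probes, scan day, slide or replicate number as a block, and each mouse left out; slide as a block was chosen after seeing the data. On simulated data with known changes, the liver fit found 64, 84, 100 and 100% of 50 sequences each at log2 changes of 0.3, 0.6, 1 and 2 (RSG 280 µmol/kg against the pool, 25256 sequences, 10 false calls), and the IAT fit 58, 90, 90 and 98% (30796 sequences, 8 false calls). The simulated noise was independent between mice, and the changed sequences were drawn from all those tested. The 28 genes varied more between mice, with a median SD of 0.46 against 0.16 in liver and 0.42 against 0.17 in IAT. The shares found are therefore not those of the 28 genes. The number of arrays limits the precision.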

Additional observations from a re-analysis of the deposited data

Results flagged for a closer look

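In 336 sets of 6 mice, 23 values lay far from the other 5 of their group (a gap to the next that passes Dixon's 95% limit for 6 samples as a share of the range, which chance passes in about 1 of 20 groups), 18 at the top and 5 at the bottom. In liver, the sample numbered 5 at RSG 84 µmol/kg held 9 of them: Ifit1 at 1.5, Ifit3 at 1.40, Irf1 at 1.39, Irf8 at 1.55, Stat2 at 0.68, Gbp2 at 2.68, Gbp3 at 2.26, Bst2 at 1.02 and Eif2ak2 at 0.86. In IAT the sample numbered 5 at the same dose held 4: Ifit2 at 1.62, Irf1 at 1.25, Gbp2 at 2.19 and Gbp3 at 1.52. The others at the top were Irf1 at 0.60 (RSG 280, mouse 2), Gbp3 at 0.79 (S 84, mouse 3), Ddx58 at 1.00 (RSG 280, mouse 1) and Bst2 at 1.06 (RSG 28, mouse 5) in liver and Ddx58 at 1.49 (RSG 280, mouse 1) in IAT. At the bottom were Oas2 at 0.36 and Oasl1 at -0.98 (both RSG 28, mouse 3) and Oas3 at -0.06 (RSG 84, mouse 6) in liver, and Mx1 at -0.11 (RSG 28, mouse 3) and Irf8 at -0.44 (S 84, mouse 6) in IAT.

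The response at 280 µmol/kg differed between the tissues by the test of the difference itself (limma) for 24 values, given as IAT minus liver. With RSG it was higher in IAT for Ifit1 (1.20), Gbp2 (1.11), Mx2 (0.82) and Ifitm1 (0.26), and lower for Irf8 (-1.26), Oas1a (-0.97), Oas3 (-0.86, a probe dim in liver), Ifit2 (-0.74, by its brighter probe), Irf5 (-0.73), Rsad2 (-0.66), Usp18 (-0.63), Isg20 (-0.61) and Oasl1 (-0.61). With S it was higher in IAT for Mx2 (0.72), Ifitm1 (0.50) and Ifitm3 (0.41), and lower for Ifit2 (-1.42, by its brighter probe), Isg20 (-1.26), Irf8 (-1.06), Oas1a (-0.94), Rsad2 (-0.92), Usp18 (-0.88), Oas3 (-0.81, a probe dim in liver) and, by its brightest probe, Ifih1 (-0.33). Tissue, pool and scan day cannot be told apart in these differences.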

How the results depend on the processing

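Of 5987 values of single genes under the alternatives, 5690 kept their direction and side of the threshold, 239 no longer passed, 54 newly passed and 4 reversed, all 4 with scan day as a block: in liver Ddx58 at S 28 (-0.37), Oasl1 and Rsad2 at S 84 (-0.03 and -0.04) and Isg20 at S 280 µmol/kg (-0.03). With the methods' threshold the genes called against the pool were 7, 7 and 3 in liver at 28, 84 and 280 µmol/kg RSG and 6 and 9 at 28 and 84 µmol/kg S, and in IAT 4 at RSG 28, 7 at RSG 280, 1 at S 28, 7 at S 84 and 6 at S 280 µmol/kg; RSG against S in liver at 280 µmol/kg gave 1, 280 against 28 µmol/kg gave 1 each for liver S, IAT RSG and IAT S, and IAT against liver gave 3 with RSG and 5 with S. With scan day as a block there were 0 and 7 calls in liver at S 28 and 84 µmol/kg, and 2, 6, 3 and 7 in IAT at RSG 28, RSG 280, S 28 and S 84 µmol/kg; RSG against S in IAT at 280 µmol/kg gave 1, and 280 against 28 µmol/kg gave 1 for liver S, 1 for IAT RSG and 4 for IAT S. With slide as a random block S 28 µmol/kg in IAT gave 3, and with the deposited table IAT against liver with S gave 7. The cause was not tested.

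With each mouse left out, the calls ranged between 7 and 12 at RSG 28 and 3 and 6 at S 28 µmol/kg in IAT, between 6 and 11 at RSG 280 µmol/kg in liver, between 2 and 4 for 280 against 28 µmol/kg S in IAT and between 0 and 1 for RSG against S in IAT at 84 µmol/kg. The 3 calls of RSG against S in liver at 280 µmol/kg were 3 in every set. With the replicate block RSG against S in liver at 28 µmol/kg gave 1 call and 280 against 28 µmol/kg S in IAT gave 4, and no other count moved by over 1.5 times. Same-numbered samples did not deviate together throughout. Within IAT the correlations of their deviations ran between -0.52 and 0.69 (47 of 90 over 0.1; own number highest in 16) and within liver between -0.29 and 0.52 (45 of 90; 27). Between liver and IAT of the same compound and dose they ran between -0.15 and 0.37 (21 of 36 over 0.1), and 23 of the 36 samples correlated best with their own number. That is a hint from the data that a number may mark the same mouse in both tissues, which the labels leave unsaid. The tests between tissues took the samples as separate, and with the number as a block they called 13 genes with RSG and 12 with S, in place of 13 and 11. Genes near background limit what can be read: Oas3 and Mx1 were dim in liver.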

Other observations

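The mouse numbers, read here after the values were seen, carried a pattern that the labels do not explain, since they do not say whether a number marks the same animal in both tissues. Of 27 genes tested in both tissues with the same probe, the same number was highest in IAT and in liver for 9, 19 and 17 at 28, 84 and 280 µmol/kg RSG and for 18, 19 and 12 with S, beside 23.2, 23.9, 28.5, 24.5, 26.7 and 19.3% of 24742 sequences in the same order. In the S groups numbers 1 to 3 all lay above 4 to 6 for 16, 19 and 18 of the 27 genes in IAT and for 11, 17 and 13 in liver, beside 7.79, 13.6 and 9.39% and 7.66, 9.97 and 11.2% of all sequences. In the RSG groups this held for 0, 0 and 0 in IAT and 0, 0 and 1 in liver. The methods housed 3 mice per cage, but the labels do not say which mice shared one. Cage entered no test here, and the mice of a group were taken as independent. The part of cage in this pattern was not tested.

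The 6 technical repeats of each of 2 liver RNAs, which the file names alone tie to mouse 1 of the RSG 28 and S 28 µmol/kg groups, were alike among themselves but stood apart from the sample of that mouse in several genes. Gbp2 ran between -2.70 and -2.28 in the RSG repeats, beside -1.79 in mouse 1, and between -3.00 and -2.81 in the S repeats, beside -2.18. Gbp3 ran between -2.12 and -2.07, beside -1.19, and between -2.54 and -2.49, beside -1.62. Ddx58 ran between -0.01 and 0.20, beside 0.84, and between -0.18 and 0.20, beside 1.01, and Ifi44 between 0.36 and 0.61, beside 1.25, and between -0.11 and 0.04, beside 0.63. The cause was not tested.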
